A study of Homo sapiens with 2 samples.

Results

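Transcripts of 10 regulators of the genes of DNA replication and mitosis were compared between CD44 high and CD44 low cells of one esophageal cancer line: the activator E2F factors E2F1, E2F2 and E2F3, the repressor E2F factors E2F7 and E2F8, the MYB family members MYBL1 and MYBL2, the forkhead factor FOXM1, the MuvB subunit LIN54 and the E2F partner TFDP1. They were taken by name as 10 rows of the 60725 genes in the gene table. The choice was made with this same contrast known, so their ratios are given as a description and carry no test.

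E2F factors bind DNA with a DP partner, of which TFDP1 is the main one, and the pocket proteins RB1, RBL1 and RBL2 hold them back until cyclin-dependent kinases release them, after which activator E2F factors turn on genes for S phase. E2F7 and E2F8 bind without a DP partner and later shut many of those genes down. For mitosis, the MuvB complex, which contacts DNA through LIN54, exchanges its repressor partners for MYBL2 and then FOXM1.

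The study sorted cultured KYSE30 cells, an established human line of squamous carcinoma of the esophagus, to enrich for cells with a metastasis-initiating signature. The line carried luciferase and GFP, and these were shared by both groups. After antibody staining the cells were separated by flow cytometry into a CD44 high group, labelled CD44 positive, and a CD44 low group, labelled CD44 negative, and polyadenylated RNA was sequenced from 1 library per group. With 1 library in each group there was no replicate check, no spread between cultures and no test, and a difference is one between 2 libraries.

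The CD44 high library held 21633236 expected counts (estimated numbers of read fragments per gene) and the CD44 low library 22859583. CD44 itself had 22819 counts in CD44 high and 9727 in CD44 low cells, a 2.35-fold difference in the direction of the labels. Of 8 epithelial markers, only some of them particular to squamous cells, 7 were measured, 3 of them higher and 4 lower in CD44 high cells. Their median log2 ratio was -0.46. KRT18, KRT8 and EPCAM had 39063 against 26900, 51019 against 41130 and 6269 against 4962 counts. KRT19 and CDH1 had 20577 against 32708 and 7686 against 10563, while KRT5, a basal squamous keratin, had 0 and 8 counts. TP63 had 2551 against 5287 counts, 2.07-fold lower in CD44 high cells, and SOX2 619 against 4202, 6.78-fold lower. No leukocyte marker of 4 exceeded 9 counts and no endothelial marker of 3 exceeded 13 in either library, and of 5 fibroblast markers only COL1A1 was measured, at 175 against 292 counts. Mitochondrial genes took 7.50% of counts in CD44 high and 14.0% in CD44 low cells.

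Ratios below are CD44 high over CD44 low on counts that keep their deposited scaling, whose size factors were inferred as 0.999 and 1.001. Each carries an exact 95% counting interval, which covers counting error only, with no variation between cultures and no allowance for PCR copies of one molecule. A gene was called measured when either library held 50 counts or more of it, which was so for 12371 genes, and their median log2 ratio was 0.01. Levels between genes are given in TPM, which divides by transcript length and brings each library to the same total. On that scale the median log2 ratio of all measured genes moved to 0.17, towards CD44 high, so TPM values are read against that shift.

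All 10 genes were measured and all 10 had a ratio above 1 with an interval above 1, which 32.4% of all measured genes also had. MYBL1 and E2F8 passed 2-fold towards CD44 high, a size that 1.24% of measured genes reached, and these 2 were also the only members past 1.5-fold, which 4.96% of measured genes passed. The other 8 genes lay between 1.14 and 1.36, and the median log2 ratio was 0.33. No member was lower, whereas 31.0% of measured genes were lower beyond counting error and 4.21% at least 2-fold lower. The member nearest to the 2-fold limit from above was E2F8 at 2.08, and the next one below, well short of it, was FOXM1 at 1.36. In these sorted populations, more cells in one stage of the cycle and more RNA per cell cannot be told apart. The share of mitochondrial counts moved with the sort as well, and its part in these ratios was not tested. With total counts that left those genes out, 9 members stayed higher beyond counting error and E2F2 did not.

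**Figure D1:**
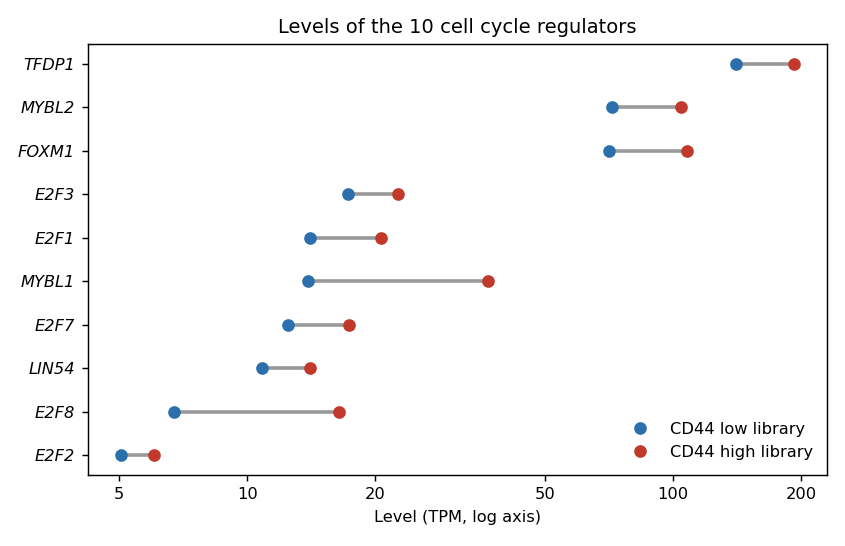
Levels of the 10 regulators in TPM (logarithmic axis) in the CD44 high and CD44 low libraries, 1 point per library. Each gene is higher in the CD44 high library, from E2F2 at 6.04 against 5.05 TPM to TFDP1 at 192 against 141 TPM.

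MYBL1, or A-MYB, is the MYB family member known in mouse for driving the meiotic genes of spermatocytes. MYBL1 (ENSG00000185697.16, chr8:66562175-66614247, minus strand) had 2324 counts in CD44 high and 1030 in CD44 low cells, or 36.8 against 13.9 TPM. The ratio of MYBL1 was 2.26, with an interval of 2.10 to 2.43 that lay wholly above 2-fold, and 0.816% of measured genes had a higher one. MYBL2, or B-MYB, is the widely expressed member that joins MuvB in dividing cells. MYBL2 (ENSG00000101057.15, chr20:43667019-43716496, plus strand) had 3862 and 2954 counts, 104 against 72.0 TPM, and a ratio of 1.31 (1.25 to 1.37). The 2 intervals did not overlap. MYBL2 was the more abundant of the pair in both libraries, but MYBL1 stood at 0.352 of the MYBL2 level in TPM in CD44 high and 0.193 in CD44 low cells.

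The founding member of the family, MYB, a regulator of progenitor cells in blood and colon, went the other way. MYB had 63 counts in CD44 high and 169 in CD44 low cells, 2.68 times lower (1.995 to 3.64), and was the only relative of the members to pass 2-fold in either direction. On the TPM scale MYB was at 1.80 against 3.58, just under 2-fold. Of the summed TPM of the MYB family, MYB thus held 1.26% against 4.0%, MYBL1 25.7% against 15.6%, and MYBL2 73.0% against 80.4%. The family was composed mostly of MYBL2 RNA in both libraries, with more MYBL1 and less MYB in the CD44 high library.

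E2F8 and E2F7 are the atypical factors, each with a pair of DNA-binding domains, that repress E2F targets. E2F8 (ENSG00000129173.12, chr11:19224063-19241620, minus strand) had 697 counts in CD44 high and 336 in CD44 low cells, 16.4 against 6.71 TPM. The ratio of E2F8 was 2.08 with an interval of 1.82 to 2.37 that reached below 2-fold, and 1.07% of measured genes had a higher ratio. E2F7 (ENSG00000165891.15, chr12:77021247-77065580, minus strand) had 1309 and 1083 counts, 17.3 against 12.5 TPM, and a ratio of 1.21 (1.12 to 1.31). The intervals of the 2 atypical factors did not overlap. In TPM the 2 genes stood nearly level in the CD44 high library, at 0.946 E2F8 per E2F7, whereas in the CD44 low library E2F8 was at 0.539 of E2F7.

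The activators differed less. E2F1, which also drives cell death genes when unrestrained, had the highest ratio of the 3: E2F1 (ENSG00000101412.12, chr20:33675683-33686404, minus strand) had 718 and 542 counts, 20.6 against 14.0 TPM, at 1.33 (1.18 to 1.49). E2F3 (ENSG00000112242.14, chr6:20401906-20493715, plus strand), an activator needed for the return of resting cells to the cycle, had 1467 and 1240 counts, 22.6 against 17.2 TPM, at 1.18 (1.10 to 1.28). E2F2 (ENSG00000007968.6, chr1:23506430-23531220, minus strand), the third activator, had 439 and 375 counts, 6.04 against 5.05 TPM, at 1.17 (1.02 to 1.35). The intervals of all 3 activators overlapped, so their ratios were not told apart at this depth, and E2F2 lay nearest to 1 relative to its error. Summed, the activators held 49.2 TPM in CD44 high and 36.3 in CD44 low cells, and the atypical factors 33.7 and 19.2. Activator RNA per atypical RNA was therefore lower in the CD44 high library, at 1.46 against 1.89, with E2F8 the one of the 5 genes that differed most.

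TFDP1 (ENSG00000198176.12, chr13:113584721-113641470, plus strand) was the most abundant of the 10 in both libraries, with 6323 and 5267 counts and 192 against 141 TPM. TFDP1 had a ratio of 1.20 (1.16 to 1.25). LIN54 (ENSG00000189308.10, chr4:82909973-83012926, minus strand), which reads the CHR element (cell cycle genes homology region) at mitotic promoters, had 769 and 677 counts, 14.0 against 10.8 TPM, and the lowest ratio of the 10, 1.14 (1.02 to 1.26). On the log2 scale TFDP1, at 0.27, lay just above and LIN54, at 0.19, just below 0.23, the value that 25% of measured genes exceeded.

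FOXM1 (ENSG00000111206.12, chr12:2857681-2877155, minus strand) activates genes of the G2 phase and mitosis and is a frequent marker of proliferating tumors. FOXM1 had 4455 counts in CD44 high and 3271 in CD44 low cells, 108 against 70.6 TPM, with a ratio of 1.36 (1.30 to 1.43), the third highest of the 10 after MYBL1 and E2F8. The gene shares its locus with ITFG2 and RHNO1 on the opposite strand, which had 354 against 239 and 1223 against 1050 counts, and LIN54 overlaps THAP9 on the opposite strand, at 141 against 109 counts. The sources used here do not state whether counting used the strand, so reads in the shared stretches of these pairs are uncertain.

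**Figure D2:**
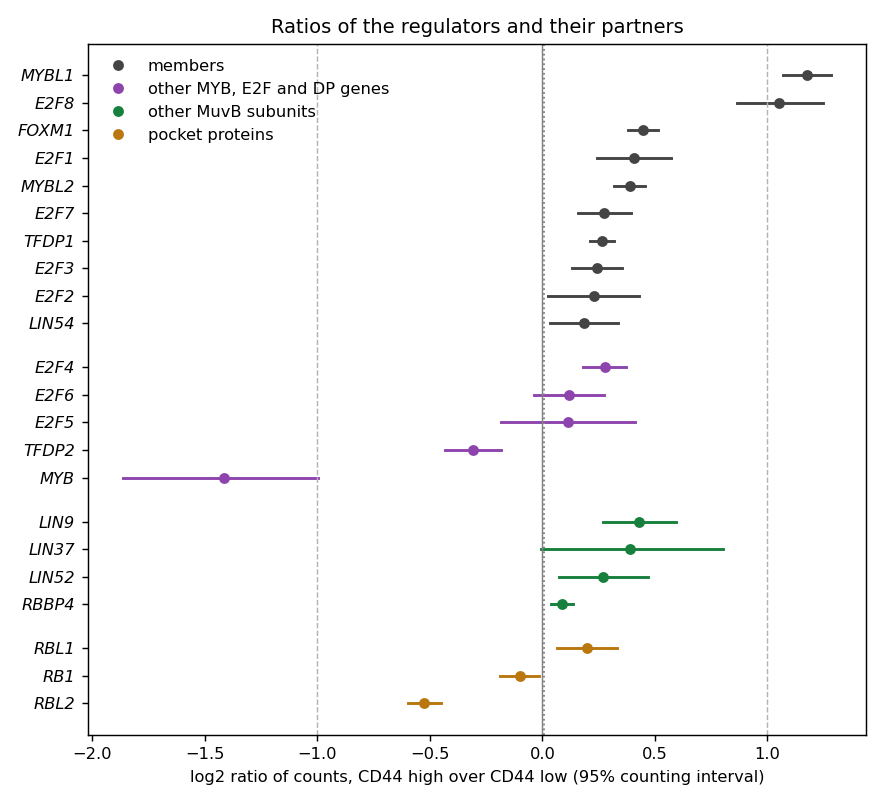
Log2 ratios of counts, CD44 high over CD44 low, with 95% counting intervals, for the 10 members and for the listed partners, grouped by role. Dashed lines mark 2-fold and the dotted line the median of all measured genes (0.01); MYBL1 (1.18) and E2F8 (1.05) lie at or past 2-fold, and MYB (-1.41) lies past it on the other side.

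Partners of the members were spread around 1. E2F4, an E2F that works with the pocket proteins in repression, had 1911 against 1579 counts and a ratio of 1.21 (1.13 to 1.30). E2F5, its close relative, had 199 against 184 counts, and E2F6, a repressor in Polycomb complexes, 709 against 654. Their intervals spanned 1, at ratios of 1.08 and 1.09, and both turned to log2 values of -0.07 and -0.03 when TPM was rescaled without mitochondrial genes. The median of all measured genes was -0.06 on that scale. TFDP2, the other DP partner, had 958 against 1186 counts and a ratio of 0.809 (0.742 to 0.881), but on the TPM scale its log2 ratio was 0.42, so no direction is given for it. TFDP3 had 0 counts in both libraries.

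Within the MuvB core, 3 of the other 4 subunits were higher beyond counting error, against 32.4% of all measured genes. The median log2 ratio of the 4 was 0.33. LIN9, the subunit that bridges to MYBL2, had 738 against 548 counts (1.35, 1.21 to 1.51), LIN52, the subunit through which the core exchanges its partners, 469 against 389 (1.21), and the histone chaperone RBBP4 6774 against 6389 (1.06). LIN37 had 121 against 92.1 counts, with an interval from 0.996 to 1.75. Among the pocket proteins, RBL2, which holds MuvB genes off in resting cells, had 2447 counts against 3522 and was 1.44-fold lower (1.37 to 1.51) in the CD44 high library. RBL1 had 997 against 869 counts at 1.15 (1.05 to 1.26), and RB1 2035 against 2185 at a log2 ratio of -0.10, which was 0.02 on the TPM scale. RBL2 was thus the only pocket protein with a negative log2 ratio under each scaling tried. RB1 lay below the median of all measured genes under each, on the TPM scale at 0.02 against 0.17.

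Of 17 listed genes that act upstream through cyclin-dependent kinases or protein turnover, 15 were measured, 11 were higher and 3 lower beyond counting error, against 32.4% and 31.0% of all measured genes, and the median log2 ratio was 0.31. CDKN2C, an inhibitor of CDK4 and CDK6 that E2F factors themselves induce, had 638 against 319 counts and a ratio of 2.0 (1.75 to 2.30), which dropped under 2-fold when scaling left out mitochondrial genes, at a log2 value of 0.97. CCNF, a cyclin that marks activator E2F proteins for destruction, had 3054 against 1560 counts (1.96), and its log2 ratio reached 1.002 with the TMM factors of edgeR. The cyclin CCND3 had 647 against 478 counts (1.36) and the inhibitor CDKN2B 1384 against 1032 (1.34). The lowest 2 genes of the list were CDKN1A, the inhibitor induced by p53, with 1037 against 1609 counts (0.645), and the kinase CDK6, with 9986 against 13772 (0.726). Both activating and inhibiting genes were thus found on each side of 1.

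The targets were described with a list of 39 S-phase genes driven by activator E2F factors and a list of 43 mitotic genes bound by MuvB with MYBL2 and FOXM1. Both lists were chosen with earlier results of these data known. Among the S-phase genes, 25 were higher and 1 lower beyond counting error, against 32.4% and 31.0% of all measured genes. The median log2 ratio was 0.18, and 0 passed 2-fold, which 1.24% of measured genes did upwards and 4.21% downwards. The highest were RRM2, a subunit of ribonucleotide reductase, with 9639 against 5593 counts (1.73), the replication helicase factor CDC45 with 1375 against 822 (1.67), the phosphatase CDC25A with 968 against 653 (1.48) and the flap nuclease FEN1 with 2872 against 1949 (1.48). At the lower end stood the cyclin CCNE1, with 280 against 325 counts (0.862, 0.732 to 1.02), and the repair enzyme UNG, with 1483 against 1604 (0.926), whose log2 ratio was 0.04 on the TPM scale.

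Among the mitotic genes, 43 of 43 were higher beyond counting error, against 32.4% of all measured genes. Their median log2 ratio was 0.54, from 0.26 to 1.21. UBE2C, the enzyme that starts ubiquitin chains for the anaphase-promoting complex, had 3191 against 1382 counts (2.31) and GTSE1, a microtubule-binding protein of G2 and S phase, 1028 against 467 (2.20). They were the 2 that passed 2-fold, a size that 1.24% of all measured genes reached. CDCA3 followed with 1907 against 988 counts (1.93) and the mitotic kinase AURKB with 2381 against 1352 (1.76), while the kinetochore protein CENPF, with 11955 against 9961 (1.20), and the kinesin KIF14, with 5218 against 4309 (1.21), were the lowest. The 10 regulators, at a median of 0.33, lay between the S-phase and the mitotic list.

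**Figure D3:**
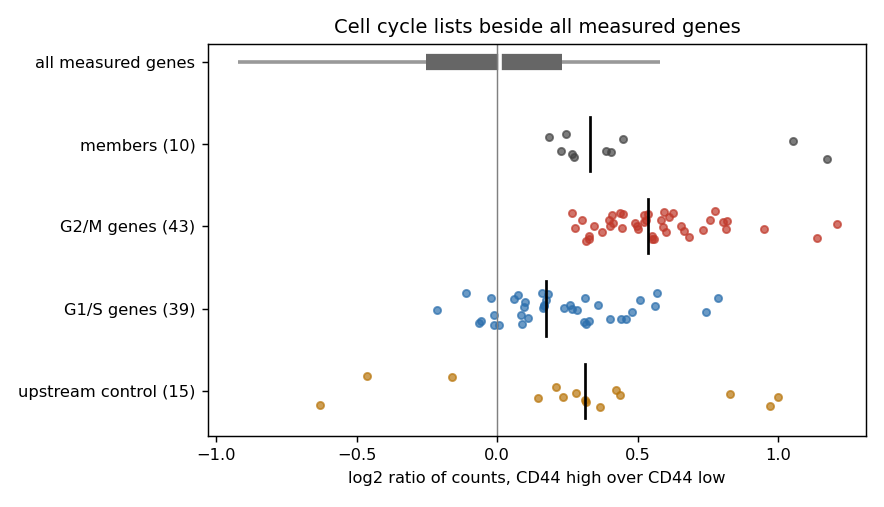
Log2 ratios of counts, CD44 high over CD44 low, for each measured gene of the members and of the mitotic (G2/M), S-phase (G1/S) and upstream control lists, 1 point per gene with a bar at each median, below a box over the middle range of all measured genes with their median. The mitotic list lies wholly above 0 with a median of 0.54, the S-phase list has a median of 0.18 and the members one of 0.33.

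The transcript table shows which forms of each gene made up these totals. It lists 54 transcripts of the 10 genes, 46 of them above 0 in a library. Their counts were estimated by dividing reads among overlapping transcripts, so form shares have no interval. Between the libraries 5 transcripts differed in their share of the gene's TPM by at least 10 percentage points, 3 of E2F8 and 2 of LIN54. Among them ENST00000529188.1 of E2F8 had only 7.14 counts in CD44 high and 0 in CD44 low cells. In the CD44 high library it held 11.7% of E2F8 TPM but 1.02% of E2F8 counts. By shares of counts, 2 transcripts of E2F8 and 3 of LIN54 differed by that much.

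LIN54 had a modest total ratio but a different make-up in the 2 libraries. Transcripts encoding 749 residues had 502 counts in CD44 high and 258 in CD44 low cells, and those encoding 528 residues had 244 and 383. The long forms held 63.6% of LIN54 TPM in CD44 high and 38.0% in CD44 low cells, and the short forms 29.9% against 54.0%. The forms differ in exon 2, which spans 716 bases in the long ones (chr4:82984161-82984876) and 53 bases in the short one checked (chr4:82984824-82984876). Their first exons differ as well, and the long ENST00000505397.1 begins at a separate first exon (chr4:83012792-83012926). The longer form was thus the main one in the CD44 high library and the shorter one in the CD44 low library.

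The 2 E2F8 transcripts that begin at the outer first exon had 375 counts in CD44 high and 138 in CD44 low cells, a ratio of 2.70. That exon spans chr11:19241497-19241620 in ENST00000527884.5 and chr11:19241407-19241620 in ENST00000620009.4. The transcript that begins at the inner first exon (chr11:19240548-19240945) had 315 and 194, a ratio of 1.62. Their shares of E2F8 TPM were 46.5% against 37.5% for the outer and 41.8% against 56.7% for the inner start, and all of these encode the same 867 residues. The 2 outer transcripts differed from each other, since one (ENST00000527884.5) had 304 against 81.7 counts, a ratio of 3.70, and the other (ENST00000620009.4) 70.9 against 56.6, a ratio of 1.25 that lay below that of the inner start.

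FOXM1 is spliced into forms called FOXM1a, FOXM1b and FOXM1c, of 801, 748 and 763 residues, of which FOXM1a is known as the inactive one. The alternative exon A1 is shown because FOXM1c carries it and FOXM1b lacks it, read from GRCh38 with the gene models of GENCODE release 44.
FOXM1 A1, 45 bases, chr12:2865355-2865399, minus strand: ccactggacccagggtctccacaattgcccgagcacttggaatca

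FOXM1c was the main form in both libraries, with 2469 counts in CD44 high and 1952 in CD44 low cells, and FOXM1b had 1289 and 981. FOXM1a had 542 and 183 counts, a ratio of 2.95 against 1.26 for FOXM1c and 1.31 for FOXM1b. Its share of FOXM1 TPM was 10.1% against 4.72%, so FOXM1a remained the least abundant of the 3.

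MYBL1 was made mostly of the 752-residue form, with 2048 counts in CD44 high and 942 in CD44 low cells, a ratio of 2.16. The 692-residue form had 265 and 80.5 counts, a ratio of 3.28, and its share of MYBL1 TPM was 24.5% against 17.7%. Both forms were higher in the CD44 high library. Shares of the other genes described differed less. The upstream start of E2F3, which makes E2F3a, held 53.4% against 52.3% of E2F3 TPM, the 700-residue form of MYBL2 94.04% against 95.1%, the 410-residue form of TFDP1 84.0% against 87.1% and the 911-residue form of E2F7 88.9% against 92.6%. E2F1 has 1 transcript in the table.

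**Figure D4:**
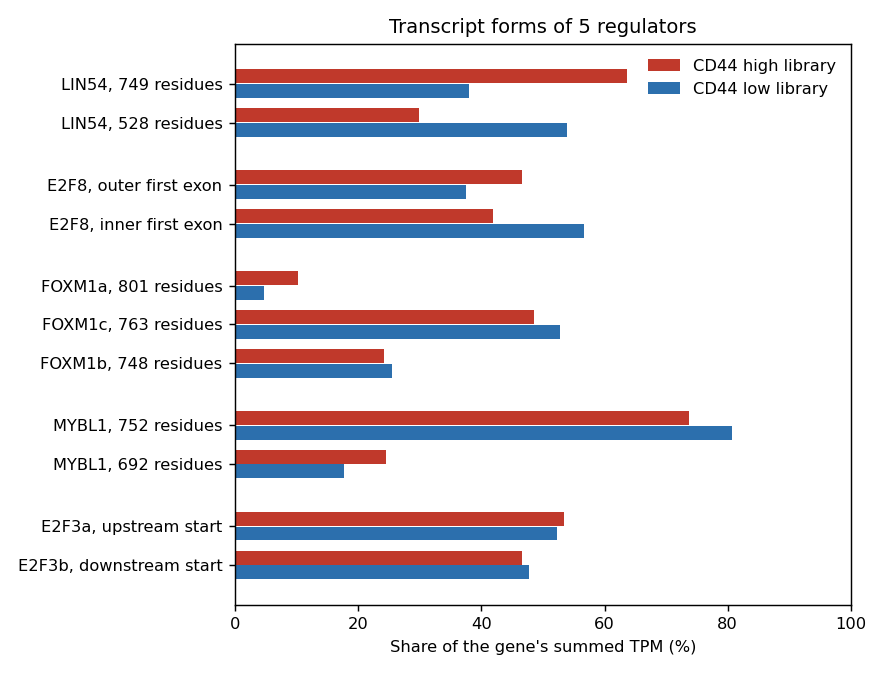
Share of each gene's TPM (percent) held by the described transcript forms in the CD44 high and CD44 low libraries. The LIN54 form of 749 residues holds 63.6% in CD44 high and 38.0% in CD44 low cells, and FOXM1a 10.1% and 4.72%.

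Promoters were read for DNA elements known from cell cycle genes. In RefSeq windows on GRCh38.p14, from 250 bases before to 50 after each start, 7 of the 10 genes were matched, all but MYBL1, E2F8 and FOXM1. Both strands were searched. A CHR match was TTTGAA or the variant TTCGAA, and an NF-Y match was CCAAT. An E2F match was TTCGCGC or the variant TTGGCGC or the further variant TTCCCGC, and a MYB match was CAACNG. Matches of different motifs did not overlap in the member windows. The 3 promoters with the most matches are shown upstream of the start, 5′ to 3′ along the gene, with matches to any of these motifs, on either strand, in capitals.
E2F1, chr20:33686386-33686635, minus strand: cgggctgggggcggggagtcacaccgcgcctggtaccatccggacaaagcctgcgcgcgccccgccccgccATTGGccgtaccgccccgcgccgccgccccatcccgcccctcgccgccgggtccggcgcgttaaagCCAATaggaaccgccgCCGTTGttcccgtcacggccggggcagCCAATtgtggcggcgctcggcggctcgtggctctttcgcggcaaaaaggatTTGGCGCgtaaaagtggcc
E2F3 upstream start, chr6:20401629-20401878, plus strand: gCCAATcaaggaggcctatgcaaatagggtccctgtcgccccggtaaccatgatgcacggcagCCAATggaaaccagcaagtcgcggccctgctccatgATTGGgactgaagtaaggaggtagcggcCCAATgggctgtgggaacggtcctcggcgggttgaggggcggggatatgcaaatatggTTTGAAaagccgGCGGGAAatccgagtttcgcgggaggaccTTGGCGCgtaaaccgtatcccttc
E2F7, chr12:77065570-77065819, minus strand: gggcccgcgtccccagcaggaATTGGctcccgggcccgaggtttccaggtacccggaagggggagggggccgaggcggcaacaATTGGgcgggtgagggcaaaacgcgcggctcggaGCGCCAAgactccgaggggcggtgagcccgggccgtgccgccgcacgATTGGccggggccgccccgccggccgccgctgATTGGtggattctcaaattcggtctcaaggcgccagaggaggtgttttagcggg

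An E2F match was found in 5 of the 7 genes (E2F1, E2F2, E2F3, E2F7 and TFDP1), against 11.03% of all 35116 windows and 22.2% of the measured genes with a window. In E2F1 it lay 19 bases before the start, with NF-Y matches at 179, 113 and 70 bases and a MYB match at 97. The upstream start of E2F3 carried E2F matches at 53 and 24 bases, a CHR match at 65 and 4 NF-Y matches, while the window of its downstream start held none. E2F7 had an E2F match at 133 bases and 4 NF-Y matches. CHR matches were found in 2 genes, E2F3 and LIN54, against 16.4% of windows and 15.3% of measured genes. NF-Y matches were in 3 genes (42.9%), close to the 43.9% of measured genes, and in 34.6% of windows. MYB matches were in 2 genes, E2F1 and E2F2 (28.6%), against 39.6% of measured genes and 32.9% of windows. MYBL2 had no match to the listed letters in this window. These are matches of letters, not shown to be sites. Other variants of the motifs were not searched, so a window without a match may still hold a site.

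**Figure D5:**
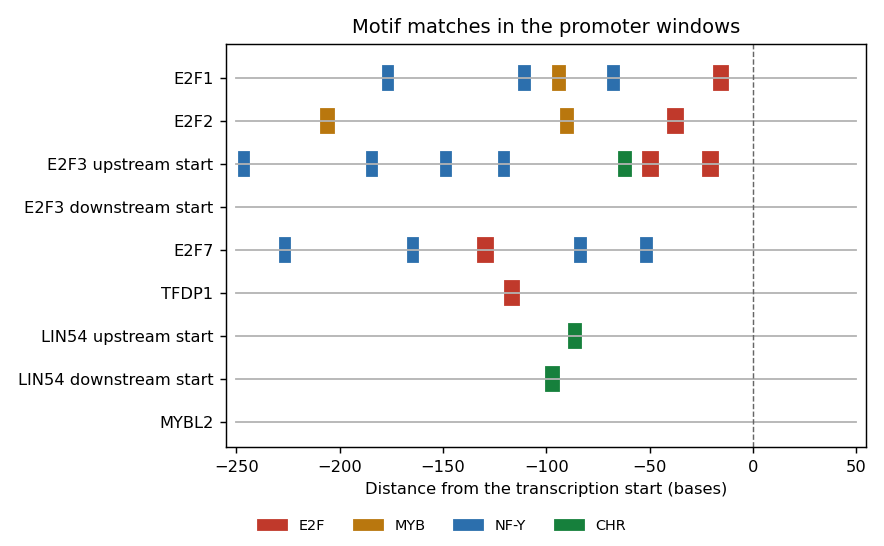
Positions of motif matches in 9 promoter windows of 7 members, as distance from the transcription start in bases. E2F matches lie 19 bases before the start of E2F1 and 53 and 24 bases before the upstream start of E2F3. The windows of MYBL2 and of the downstream start of E2F3 hold no match to the letters searched.

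Over the 9010 measured genes with a window, the median log2 ratio was 0.05 with a CHR match and 0.01 without, 0.05 with an E2F match and 0.01 without, and 0.08 for the 599 genes with both a CHR and an NF-Y match. These differences were small beside the middle range of all measured genes, of which 25% lay below -0.25 and 25% above 0.23. In the S-phase list 27 of 33 matched genes held an E2F match and 4 a CHR match, and in the mitotic list 26 of 37 held a CHR match and 8 an E2F match.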

How the data were processed

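RNA of 2 sorted populations of one cell line was sequenced, 1 library each. The authors built poly(A) libraries, demultiplexed with bcl2fastq and aligned to GRCh38 with STAR. They deposited normalised read counts, taken here as RSEM expected counts divided by a size factor, beside TPM, for genes and transcripts. Adapters carried unique molecular identifiers. Whether these entered the counting, and the strand setting, are not given in the sources used here. One sequence is not reported here. Columns of the authors' own comparison (fold changes, posterior probabilities, FDR) were not used.

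Size factors were inferred from the steps of the deposited values and divided out, giving 21633236 and 22859583 expected counts. Of the values 86.0% and 86.7% were whole within 0.05. All 10 members have whole counts. For ratios the same inferred factors were put back, which keeps the deposited scaling, and log2 ratios used a prior count of 0.5. Intervals are exact conditional binomial intervals. Called genes had at least 50 counts in a library and a ratio of at least 2. TPM ratios used log2(TPM + 1).

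The members and gene lists were chosen with earlier results of these data known. Named genes are the members, their relatives, MuvB subunits and pocket proteins, and from each other list the genes past 2-fold plus the 4 highest and 2 lowest with at least 200 counts in a library. Python 3.11.15, pandas 2.3.3, scipy 1.17.1 and edgeR 4.0.16 (TMM factors) were used, and the ratio code was tested on simulated data. Alternatives were TMM factors, total counts with and without mitochondrial genes, a prior count of 5, log2(TPM + 1), a 1.5-fold limit and other count minimums.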

Additional observations from a re-analysis of the deposited data

How the results depend on the processing

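The members' median log2 ratio of 0.33 was 0.49 on the log2(TPM + 1) scale, and that of the S-phase list went from 0.18 to 0.37. The mitotic list's 0.54 was 0.71 on that scale and 0.62 with total counts. Over the same 12371 genes the median was 0.17 on the TPM scale, 0.09 with total counts and 0.01 in the counts as scaled here. Of those past 2-fold, 22.8% were higher with the scaling used here, 41.9% by TPM and 20.03% by TPM without mitochondrial genes. The TPM shares rest on the ratio alone, without the interval condition. After the data were seen, TPM rescaled without mitochondrial genes was added, under which the median of all measured genes was -0.06. On that scale E2F2 fell to 0.02 and TFDP1, MYBL2 and FOXM1 to 0.21, 0.30 and 0.37. MYBL1 and E2F8 passed 2-fold under each count scaling and as plain TPM ratios, but E2F8 was at 0.98 on the log2(TPM + 1) scale without mitochondrial genes. Under the count scalings 10 were higher beyond counting error except with total counts without mitochondrial genes, where E2F2 no longer was and 9 remained. No member and neither target list reversed, but TFDP2 (0.42), RB1 (0.02), the pocket proteins' median (0.02) and UNG (0.04) turned positive on the TPM scale, and E2F5 (-0.07) and E2F6 (-0.03) negative on it without mitochondrial genes. The cause was not tested. No paired analysis was possible because each group has 1 library, and for the same reason no library could be left out. Protein features of the members were not analysed here. Depth limits MYB (63 and 169 counts), LIN37 and the minor transcripts.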

Other observations

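MYBL1 is known in mouse for switching on meiotic genes. Of 12 listed germ cell genes, none was measured: the highest had 3 counts in CD44 high and 4 in CD44 low cells, 5 were at 0 in both, and the sums were 9 and 17 counts. A difference in these genes could not have been detected at such counts.

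Genes that lie close to MYBL1 and E2F8 did not share their ratios. Within 300 kb, the 5 measured neighbours of MYBL1 had ratios from 0.639 (C8orf44) to 1.36 (RRS1), with a median log2 of -0.10, and the 2 of E2F8 were NAV2 at 0.787 and ZDHHC13 at 1.43. Around FOXM1, 7 measured neighbours ran from 0.538 (TSPAN9) to 1.58 (TEAD4), with a median of 0.29. No neighbour of any of the 10 members was at least 2-fold higher, against 1.24% of all measured genes, and 1 neighbour each of E2F1, E2F2 and TFDP1 was at least 2-fold lower, against 4.21%. Each member had only 2 to 12 measured neighbours, too few to read these counts against those shares. Among the neighbours were the overlapping genes ITFG2, RHNO1 and THAP9.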
